A study of Mus musculus with 2 samples.

Results

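The 10 genes described here take up, carry, store and break down fatty acids: Cd36, Scarb1, Lpl, Fabp1, Fabp4, Fabp5, Plin2, Hilpda, Pparg and Lipa. They were chosen by name from the 22508 genes of a single-cell table of mouse liver, and all 10 were found in it. Both samples, WT replicate 1 and WT replicate 2, belong to the same group of C57BL/6 mice aged 8 weeks. Livers were taken apart with enzymes, the cells were cleaned on a Percoll gradient of 25% and 50%, and 3' libraries were made on the 10x Chromium system. The labels do not say whether the samples came from different mice. No treatment or genotype was compared. The comparisons are therefore between cell types and between parts of a cell type, each read in 1 library and without a replicate.

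Fatty acids reach a cell free or as triglyceride in lipoproteins, which lipoprotein lipase (Lpl) splits at the vessel wall. Cd36 and Scarb1 bind fatty acids and lipoproteins at the cell surface, and the small Fabp proteins carry fatty acids inside the cell. Surplus is stored as triglyceride in lipid droplets coated by Plin2, where Hilpda inhibits the lipase Pnpla2. Pparg switches on many of these genes, and Lipa digests lipids in lysosomes. In the liver, hepatocytes handle most fatty acids, stellate cells keep retinyl esters in droplets, and Kupffer cells, the resident macrophages, clear particles from the blood. Blood runs from the portal vein through sinusoids to the central vein, and oxygen falls along the way.

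Promoter windows were matched in RefSeq (GRCm38.p6) for 6 of the 10 genes, and the 250 bases before the start are printed for 3 of them: Cd36 and Hilpda, which were called between parts of the sinusoidal or stellate cells, and the droplet gene Plin2 for comparison with Hilpda. The Cd36 window lies before an internal start of the gene, whose annotated 5' end is at position 17888801 of chromosome 5. Capitals mark AGGTCA, the hexamer bound by nuclear receptors such as Pparg, or GGGCGG, the GC box, on either strand.
Plin2, chr4:86670060-86670309, minus strand: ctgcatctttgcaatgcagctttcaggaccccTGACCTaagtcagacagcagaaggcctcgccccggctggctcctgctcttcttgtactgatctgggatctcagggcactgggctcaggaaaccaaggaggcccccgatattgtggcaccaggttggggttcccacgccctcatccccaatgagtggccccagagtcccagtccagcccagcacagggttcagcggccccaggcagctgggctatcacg
Hilpda, chr6:29272238-29272487, plus strand: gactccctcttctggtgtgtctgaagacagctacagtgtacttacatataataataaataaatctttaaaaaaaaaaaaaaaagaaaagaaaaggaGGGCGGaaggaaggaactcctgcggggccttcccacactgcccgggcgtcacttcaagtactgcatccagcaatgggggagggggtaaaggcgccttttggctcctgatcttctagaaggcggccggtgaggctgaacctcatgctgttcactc
Cd36, chr5:17835897-17836146, minus strand: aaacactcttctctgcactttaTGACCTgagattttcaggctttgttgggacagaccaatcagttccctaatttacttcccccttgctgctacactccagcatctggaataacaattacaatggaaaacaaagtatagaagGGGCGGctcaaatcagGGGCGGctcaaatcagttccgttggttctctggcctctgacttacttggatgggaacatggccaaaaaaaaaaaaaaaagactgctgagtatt
AGGTCA occurred 1 time before Plin2 and 1 time before Cd36, and in 14.0% of all 32851 windows of this length. GGGCGG occurred 1 time before Hilpda and 2 times before Cd36, and in 32.7% of all windows. ACGTG, the core of the site bound by hypoxia-inducible factors, was absent from these 3 windows and stood 1 time before a second Hilpda start, and it occurred in 16.6% of all windows. The full PPAR element AGGTCANAGGTCA was in none of the 9 windows of the 6 genes and in 0.0335% of all windows.

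Replicate 1 held 7362 cells with 40645060 UMIs (unique molecular identifiers, each a counted molecule), and replicate 2 held 2341 cells with 11867207 UMIs. The libraries differed in content: replicate 2 was 99.4% stellate cells (2327 cells), whereas replicate 1 held 14 other types of at least 20 cells and only 5 stellate cells. Cell type and library therefore cannot be told apart wherever stellate cells are set against others. No gene of replicate 2 had a UMI in only 1 or 2 cells, while 760 had one in 3 cells and 5730 were at 0, so a gene at 0 there is reported only as listed at 0. Types were set by marker UMIs, and every level below is in CPM, the UMIs of a gene per 1000000 UMIs of all cells of the type. Intervals are exact 95% intervals and cover counting error only.

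Cd36, the fatty acid translocase, was a gene of the sinusoid and the portal vessels. Its level was 720 CPM (674 to 770) in portal and arterial endothelial cells, of which 90.2% had a UMI, and 607 CPM (594 to 621) in sinusoidal endothelial cells, of which 77.0% had one. Both stood apart from the next types in the order, central vein endothelial cells (129 CPM, 111 to 149) and Kupffer cells (128 CPM, 122 to 134), whose intervals overlapped. Hepatocytes, read in 165 cells, had 73.8 CPM and stellate cells 20.7 CPM. In T cells, which served as the type without the gene, 3.25% of cells had a UMI at a median depth of 3476 UMIs per cell, against 4908 in sinusoidal cells. Thinned to 1500 UMIs per cell, 52.7% of sinusoidal and 16.3% of Kupffer cells had a Cd36 UMI.

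Scarb1, the receptor for high-density lipoprotein, had similar levels in Kupffer and endothelial cells. Its level was 142 CPM in Kupffer cells (135 to 149), 123 in central vein cells (105 to 142), 118 in sinusoidal cells (112 to 124) and 95.7 in portal and arterial cells (79.1 to 115). Neighbours in that order had overlapping intervals, and Kupffer cells were 1.20-fold above sinusoidal cells (1.12 to 1.29). Stellate cells followed with 52.3 CPM and hepatocytes with 43.4 CPM. Another annotated gene, Gm42633, overlaps Scarb1 on the same strand, so reads of the pair could have been split.

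Lpl was high in few types. Kupffer cells had 941 CPM (923 to 958) with a UMI in 82.1% of cells, portal fibroblasts, the connective tissue cells around the portal vein, had 800 CPM (736 to 868) with 84.0% of cells, and stellate cells had 105 CPM (99.1 to 111) with 37.7%. These 3 intervals did not overlap. Sinusoidal cells, in contact with the same blood, had 5.31 CPM from 73 UMIs in 2599 cells. That was 0.564% of the Kupffer level, inside the span of 0.464% to 0.857% that 6 Kupffer markers showed in the same sinusoidal cells. However, 1 cell held 21 of the 73 UMIs. Without it the level was 3.78 CPM, which would lie below that span. The Lpl ratios to sinusoidal cells given below include that cell. In stellate cells Lpl stood at 11.2% of the Kupffer level while the same 6 markers stood at 0.263% to 0.625%. T cells had 0 UMIs in 154 cells, which allows a share of up to 1.95% of cells with a UMI at a limit of 3 cells. The exact interval reaches 2.37%.

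Fabp1, the liver fatty acid carrier, marked hepatocytes at 19711 CPM (19478 to 19946) with a UMI in 99.4% of cells. The next type, T cells, was 164-fold lower at 121 CPM, or 63.9 CPM without 1 cell that held 35 of its 74 UMIs. The other types showed Fabp1 together with RNA of other hepatocyte genes: the sum of Apoa1, Apoa2, Apoc3 and Fgb was 296 CPM in sinusoidal, 210 in Kupffer and 39.9 in stellate cells, against Fabp1 at 74.0, 49.4 and 6.79 CPM. The ratio of Fabp1 to Apoa1 UMIs was 5.17 in hepatocytes (5.02 to 5.32), 1.17 in sinusoidal cells (1.07 to 1.28) and 1.09 in Kupffer cells (0.971 to 1.23). The part of free RNA in these Fabp1 levels was not tested further.

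Fabp4 was the endothelial carrier, and the vessels carried far more of it than the sinusoids. Central vein cells had 4991 CPM (4876 to 5108), portal and arterial cells 3048 CPM (2951 to 3147) and sinusoidal cells 566 CPM (554 to 579). The median cell held 27 Fabp4 UMIs in the central vein gate and 1 in the sinusoidal gate. The 82 endothelial cells that met none of these 3 gates had 5026 CPM, with a median of 0 UMIs. Of their 888 UMIs 1 cell held 185, and the level was 4180 CPM without it. The other types named here were far lower, with 61.9 CPM in stellate, 16.2 in Kupffer and 3.26 in T cells. Fabp5, the epidermal type carrier, had another order: 478 CPM (467 to 490) in sinusoidal, 429 (393 to 467) in portal and arterial, 288 (262 to 316) in mesothelial and 241 (217 to 268) in central vein cells, the last pair with overlapping intervals. Cholangiocytes, the bile duct cells, had 126 CPM and Kupffer cells 10.5 CPM.

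Plin2, the droplet coat protein, was highest in hepatocytes at 378 CPM (346 to 412), then in stellate cells at 257 CPM (248 to 266) and Kupffer cells at 198 CPM (190 to 206). Unthinned, the share of cells with a UMI was nearly the same in hepatocytes (67.3%) and stellate cells (67.1%). Their median depths differed, at 3137 UMIs in hepatocytes and 5009 in stellate cells. Thinned to 1500 UMIs per cell, 39.3% of hepatocytes (30.6 to 48.6) and 32.5% of stellate cells (30.6 to 34.4) had a Plin2 UMI, with overlapping intervals. Sinusoidal cells had 110 CPM and T cells 24.4 CPM. Hilpda had another order and was highest in Kupffer cells at 293 CPM (283 to 303), 6.05-fold above stellate cells (48.4 CPM, 44.5 to 52.5). Sinusoidal cells had 38.5 CPM (35.3 to 41.9), below stellate cells, and the interval of T cells (45.6 CPM, 30.3 to 65.9) overlapped both. Hepatocytes had 7.24 CPM from 10 UMIs. Unthinned, 43.6% of Kupffer and 6.06% of hepatocyte cells had a Hilpda UMI, at median depths of 4037 and 3137 UMIs.

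Pparg was near the limit of the assay, with 194 UMIs in all kept cells. Hepatocytes (10.1 CPM, 14 UMIs) and Kupffer cells (9.16 CPM, 109 UMIs) led with overlapping intervals, and the hepatocyte value was 4.06 CPM when every cell had equal weight. Sinusoidal cells had 2.11 CPM, and in the 2327 stellate cells Pparg was listed at 0. A gene on the opposite strand, Gm44079, overlaps Pparg, and the strand used in counting is not given in the sources used here. Lipa, the lysosomal acid lipase, was highest in Kupffer cells at 511 CPM (498 to 524), where 72.9% of cells had a UMI. Hepatocytes (199 CPM, 176 to 224) and sinusoidal cells (178 CPM, 171 to 186) followed without a clear order between them, and stellate cells had 105 CPM.

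**Figure D1:**
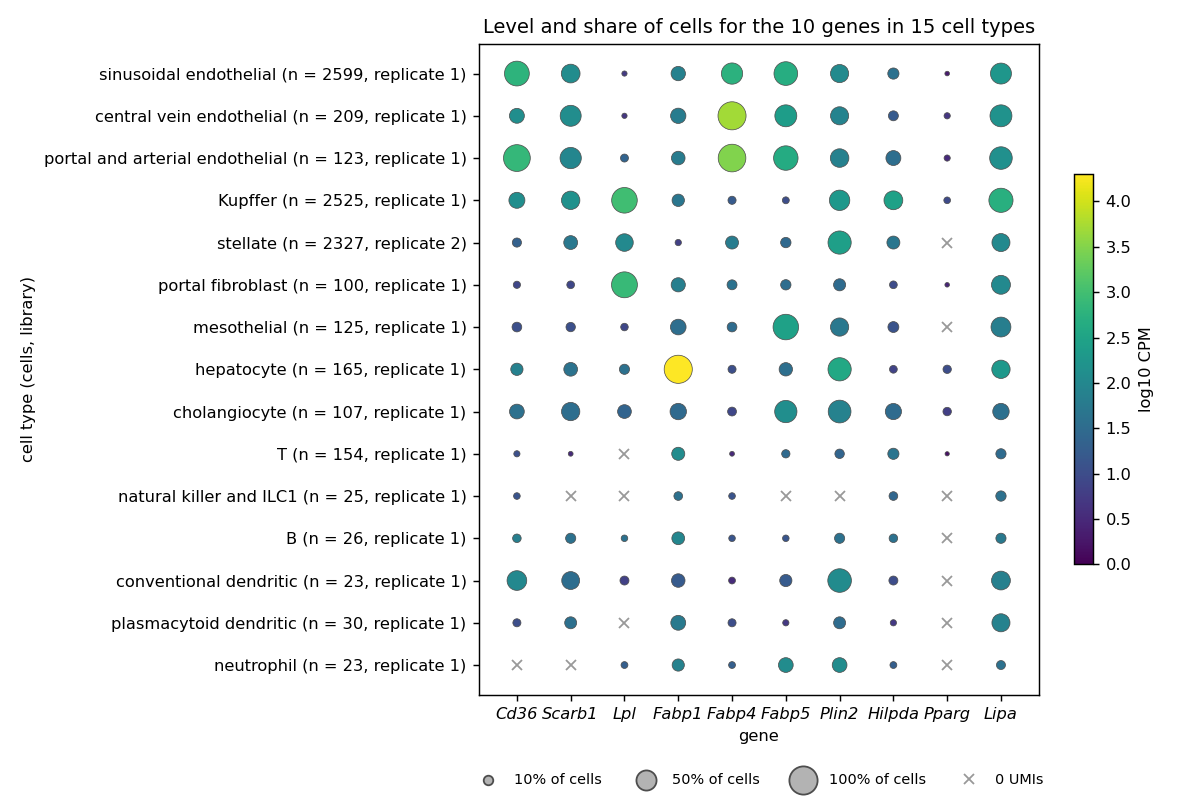
Level (colour, log10 CPM) and share of cells with a UMI (dot area) of the 10 genes, columns, in the 15 cell types of at least 20 cells, rows; crosses mark 0 UMIs. Fabp1 stands out in hepatocytes, Fabp4 in the vessel endothelium, Lpl in Kupffer cells and portal fibroblasts, and Cd36 in sinusoidal and portal endothelium.

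Among endothelial cells, Fabp4 and Cd36 divided the 2 ends of the vascular tree in different ways. A gene was called at 2-fold or more with at least 50 UMIs over both sides. Against sinusoidal cells, central vein cells had 8.82-fold more Fabp4 (8.54 to 9.11), 4.71-fold less Cd36 (4.07 to 5.48) and 2.30-fold less Hilpda (1.53 to 3.62, from 24 UMIs in the central vein cells). The Hilpda call ended when every cell had equal weight, at 1.80-fold. Fabp5 was 1.98-fold lower (1.78 to 2.22), just short of a call. Thinned to 1500 UMIs, 96.6% of central vein and 38.4% of sinusoidal cells had a Fabp4 UMI, and 11.8% and 52.7% had a Cd36 UMI. Of the 9 members with enough UMIs, 1 was called higher and 2 lower, beside 3.54% and 4.28% of all genes tested. Central vein cells of this gate kept much of the sinusoidal signature: the 7 sinusoidal markers summed to 10377 CPM there and to 16298 CPM in sinusoidal cells. With a stricter gate the Cd36 ratio went to 0.124, a fall of 8.07-fold, and the number called lower from 2 to 4.

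Portal and arterial cells shared the high Fabp4 and not the low Cd36. Fabp4 was 5.38-fold above sinusoidal cells (5.18 to 5.60), Cd36 1.19-fold above (1.11 to 1.27) and Hilpda 1.12-fold below, with an interval that spans no difference (0.818 to 1.57). Lpl was 4.47-fold higher (2.80 to 6.96), from 29 UMIs in 6.50% of the cells, 13 of them in 1 cell (13.2 CPM without it, 23.7 with it), and was not called when cells were thinned or the gate was stricter, which left 1 of these 2 calls. The 2 members called higher and 0 called lower, of 9 tested, stand beside 6.78% and 11.3% of all genes. Set directly against central vein cells, portal and arterial cells had 5.58-fold more Cd36 (4.76 to 6.58), 2.05-fold more Hilpda (1.21 to 3.54) and 1.64-fold less Fabp4 (1.57 to 1.70). Both Fabp4 ratios of the portal and arterial cells include the cell that held 463 of their 3727 UMIs. The 4 immediate early genes Fos, Jun, Egr1 and Atf3, which respond to cell stress and dissociation, summed to 11648 CPM in portal and arterial, 4047 in central vein and 4644 in sinusoidal cells, and their part in these differences was not tested.

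**Figure D2:**
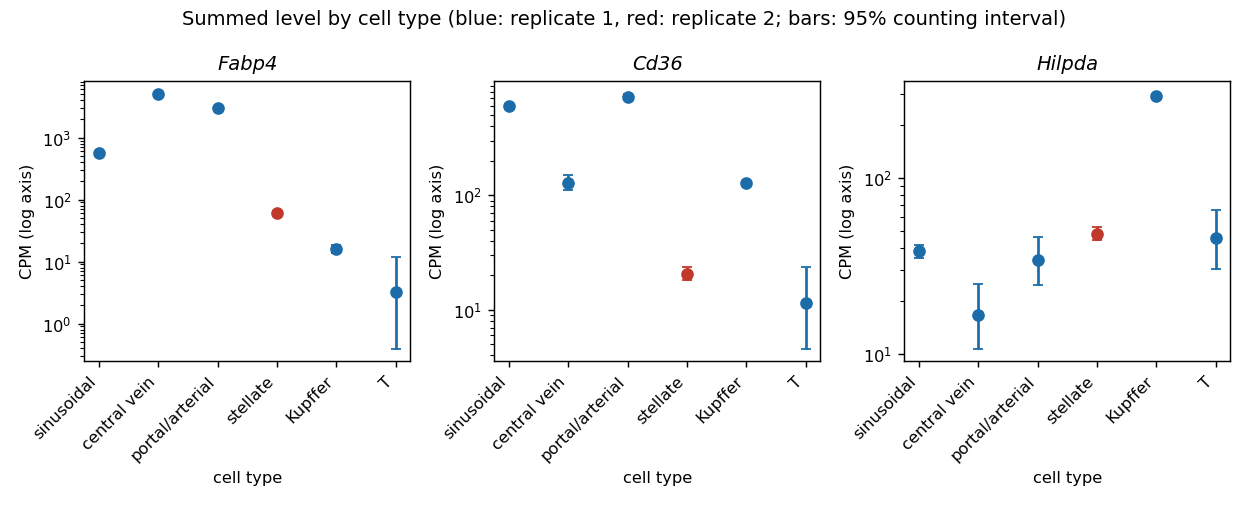
Fabp4, Cd36 and Hilpda in CPM (log axis) by cell type, with 95% counting intervals; blue points are replicate 1 and the red point is replicate 2. Fabp4 runs from 4991 CPM in central vein cells to 3.26 in T cells, Cd36 is low in central vein cells at 129 CPM, and Hilpda is highest in Kupffer cells at 293 CPM.

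Sinusoidal cells were also ordered along the sinusoid by a score of central landmarks (Wnt2, Kit, Thbd, Cdh13) minus portal landmarks (Efnb2, Dll4, Ltbp4, Ntn4, Msr1, Adam23) and cut into 3 equal parts, which are ranges of a score and not cell types. Thbd and Cdh13 are also among the 7 central vein gate markers, of which a sinusoidal cell could carry fewer than 4. The central end and the central vein comparison are therefore not fully separate observations. From the portal through the middle to the central part, Fabp4 was 358, 364 and 990 CPM. The rise lay between the middle and the central part, with a central to portal ratio of 2.76 (2.61 to 2.93). Cd36 fell in both steps, from 826 to 661 and 327 CPM, 2.53-fold in all (2.38 to 2.69). Hilpda fell from 55.3 to 35.4 and 24.5 CPM, 2.25-fold (1.80 to 2.85). Fabp5 went the same way by 1.69-fold (1.58 to 1.79), short of a call. Plin2, Scarb1, Fabp1 and Lipa differed by at most 1.24-fold. Of the 8 members tested 1 was called higher at the central end and 2 lower, beside 1.05% and 1.46% of all genes. Of the 2599 cells, 317 lay close to a boundary of the score.

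Other signals moved with this order. Immediate early genes summed to 5704 CPM in the portal, 5009 in the middle and 3174 in the central part. Among cells below and above the median of those genes, Fabp4 was 3.14-fold and 2.37-fold higher at the central end, and Cd36 2.89-fold and 2.35-fold higher at the portal end. Hilpda was 3.40-fold higher at the portal end in cells below and 1.71-fold in cells above the median. With all cells thinned to 1500 UMIs its ratio was 1.54-fold with an interval that reaches no difference (the central to portal ratio was 0.651, 0.413 to 1.02), so the Hilpda call ended there. In the 1620 cells without a UMI of 7 vein or artery markers, Fabp4 was 736 CPM at the central and 334 CPM at the portal end, a ratio of 2.20, and Cd36 was 2.25-fold higher at the portal end. Thbd and Cdh13 were not among these 7 markers, so cells with their UMIs stayed in.

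**Figure D3:**
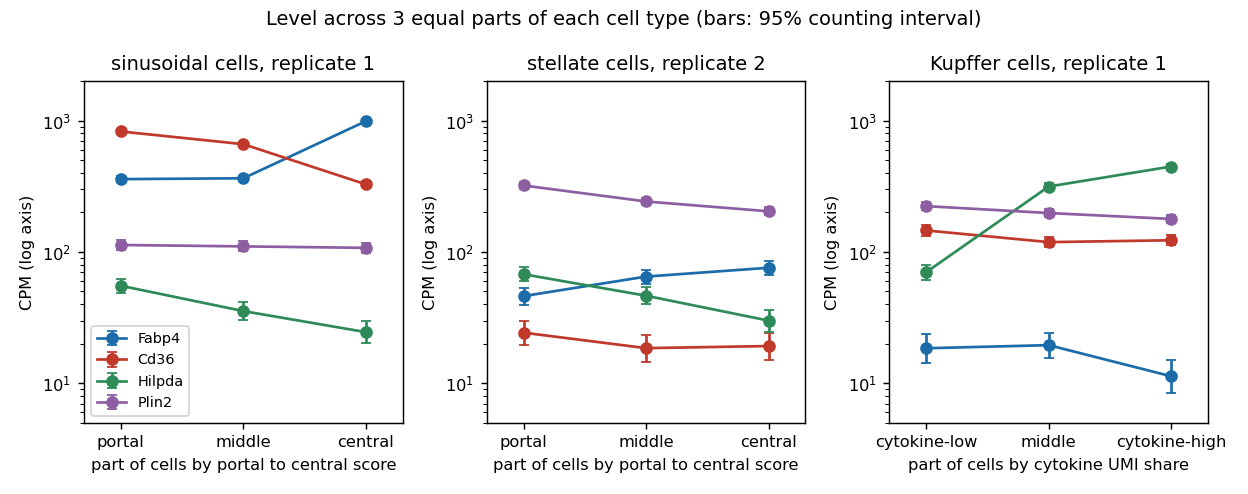
CPM (log axis) of Fabp4, Cd36, Hilpda and Plin2 across 3 equal parts of sinusoidal, stellate and Kupffer cells, with 95% counting intervals. In sinusoidal cells Fabp4 is higher at the central end (990 against 358 CPM) and Cd36 at the portal end (826 against 327 CPM), and in Kupffer cells Hilpda goes from 70.1 to 447 CPM with the cytokine share.

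Stellate cells, which lie outside the sinusoid wall, had another set of lipid genes than the endothelium beside them. Against sinusoidal cells, Lpl was 19.8-fold higher (15.6 to 25.4) and Plin2 2.33-fold higher (2.19 to 2.48), while Cd36 was 29.3-fold lower (25.8 to 33.5), Fabp5 17.0-fold lower (15.3 to 19.1), Fabp1 10.9-fold lower (8.67 to 13.9), Fabp4 9.14-fold lower (8.47 to 9.87) and Scarb1 2.26-fold lower (2.06 to 2.48). Hilpda differed by 1.26-fold (1.11 to 1.42). The 2 members called higher and 5 called lower, of 9 tested, stand beside 17.2% and 19.8% of all genes. The type and the library cannot be told apart here. The free hepatocyte RNAs Apoa1, Apoa2, Apoc3 and Fgb were 4.85-fold, 9.28-fold, 10.0-fold and 5.73-fold lower in the stellate cells too. Their part in the lower Fabp1 was not tested. Sinusoidal markers were also present in the stellate cells: 6 of 7 stood at 3.94% to 8.72% of their sinusoidal level and Ehd3 at 33.0%, beside 10.9% for Fabp4, 5.87% for Fabp5 and 3.41% for Cd36. The 5 stellate cells of replicate 1, with 11384 UMIs, had 0 UMIs of Fabp4, Fabp5 and Cd36, 4 of Lpl, 1 of Hilpda and 6 of Plin2. All 6 Plin2 UMIs lay in 1 cell, and 1 cell held 3 of the 4 Lpl UMIs.

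Within stellate cells of replicate 2, 3 equal parts by a score of central (Adamtsl2, Loxl1, Podn, Spon2) minus portal landmarks (Ngfr, Itgb3, Igfbp3, Il34) were compared. Hilpda was 67.6, 46.4 and 30.0 CPM from the portal to the central part, 2.26-fold higher at the portal end (1.81 to 2.83). Its ratio was 2.29-fold in cells below and 2.22-fold in cells above the median of immediate early genes, which summed to 10160 CPM at the portal and 9347 CPM at the central end. Plin2 went the same way, from 321 to 242 and 204 CPM, 1.57-fold (1.44 to 1.72). Fabp4 went the other way, from 46.1 to 64.9 and 75.7 CPM, 1.64-fold (1.36 to 1.99). For Cd36 the interval of the 1.26-fold difference spans no difference (0.924 to 1.74). Only Hilpda was called, 1 of 9 members lower at the central end and 0 higher, beside 1.07% and 1.16% of all genes. Of the 10 hypoxia-induced genes, 7 had enough UMIs and Vegfa, a vessel growth factor, was 3.41-fold higher at the central end (2.21 to 5.42), the end opposite to that of Hilpda. The sinusoidal markers summed to 2247 CPM at the portal and 1812 CPM at the central end.

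Of the 15 types, Kupffer cells had the highest Hilpda, Lpl and Lipa. Against sinusoidal cells, Lpl was 177-fold higher (141 to 226), Hilpda 7.60-fold (6.93 to 8.34), Pparg 4.35-fold (2.86 to 6.79) and Lipa 2.86-fold (2.73 to 3.003), and Plin2 was 1.80-fold higher (1.68 to 1.92). Fabp5 was 45.6-fold lower (38.2 to 54.8), Fabp4 34.9-fold lower (30.3 to 40.5) and Cd36 4.75-fold lower (4.50 to 5.02). The 4 called higher and 3 called lower, of 10 tested, stand beside 16.3% and 24.1% of all genes. Cd36 in Kupffer cells stood at 21.1% of its sinusoidal level, above the 0.735% to 10.1% of the 7 sinusoidal markers there. Of the 8 hypoxia-induced genes tested, 5 were lower in Kupffer than in sinusoidal cells and 1, Slc2a1, was higher. The list summed to 96.1 CPM in Kupffer and 635 CPM in sinusoidal cells, and without Ndrg1, its most abundant gene there, to 88.6 and 189 CPM.

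Hilpda also varied among Kupffer cells. When they were cut into 3 equal parts by the share of Il1b, Tnf, Ccl3, Ccl4 and Cxcl2, inflammatory cytokine genes, a split added after the data were seen, Hilpda was 70.1, 315 and 447 CPM from the lowest to the highest part. The ratio was 6.38-fold (5.57 to 7.32), and 41.6% against 8.72% of thinned cells had a UMI. It was the only 1 of the 10 members called, with 0 lower, beside 1.96% and 1.02% of all genes. Plin2 fell by 1.25-fold (1.13 to 1.39) over the same parts, and Lpl (940 and 913 CPM) and Lipa (524 and 490 CPM) differed by less than 1.08-fold. Immediate early genes summed to 2920 CPM in the lowest and 7796 CPM in the highest part. Below their median the Hilpda ratio was 7.10-fold, from 145 cells of the highest and 697 of the lowest part. Above it the ratio was 2.95-fold, from 696 and 145 cells. The cytokine split and the immediate early split therefore put largely the same cells apart.

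**Figure D4:**
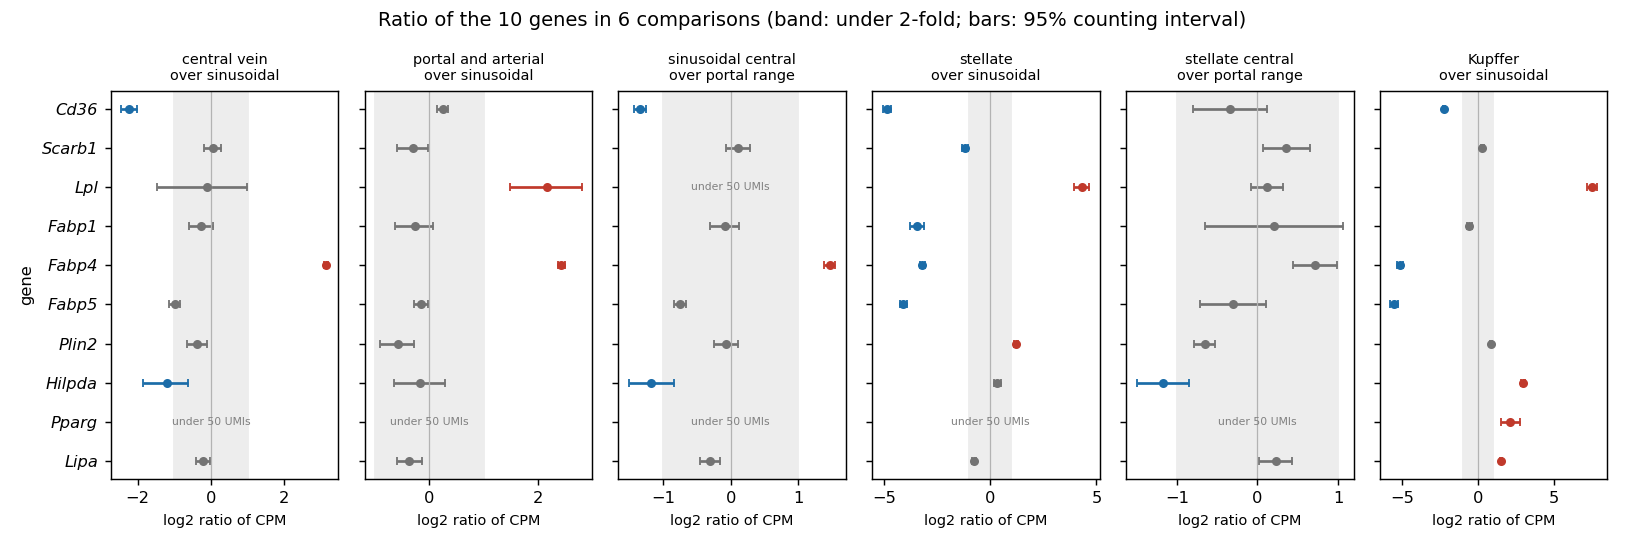
Ratio of CPM (log2) of the 10 genes in 6 comparisons, with 95% counting intervals; red and blue mark genes called higher and lower, the grey band marks differences under 2-fold, and genes under 50 UMIs are not drawn. Fabp4 is called higher in the 3 comparisons within the endothelium, and Cd36 is called lower in 2 of them.

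The 4 comparisons against sinusoidal cells share those cells. The median log2 ratio of the members tested was -0.27 in central vein cells (-0.03 over all genes tested), -0.17 in portal and arterial (-0.12), -1.17 in stellate (-0.09) and 0.56 in Kupffer cells (-0.27). Between parts it was -0.20 in sinusoidal (0.02 over all genes), 0.12 in stellate (0.01) and -0.29 in Kupffer cells (-0.07).

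Partner genes were read from 6 lists of the lipid pathway. For uptake, 18 genes were looked up. Gpihbp1, which anchors Lpl on endothelium, was at 1743 CPM in sinusoidal cells, the cells with 5.31 CPM of Lpl itself, and was 16.1-fold lower in stellate and 81.3-fold lower in Kupffer cells. Of 13 uptake genes with enough UMIs, 2 were higher and 6 lower in stellate cells (17.2% and 19.8% of all genes), among them Lrp1, the remnant receptor, at 83.0-fold higher, and Cav1, the caveolar coat gene, at 29.0-fold lower. Slc27a5, a hepatocyte gene, was listed at 0 there. In Kupffer cells 4 of 13 were higher and 2 lower (16.3% and 24.1% of all genes), with Fabp7, the brain type carrier, at 687 CPM and 197-fold above sinusoidal cells, Lrp1 83.2-fold higher, and Slc27a1 at 9.49 CPM against a single (1) sinusoidal UMI. Cav1 was 2.65-fold higher in central vein and 4.29-fold higher in portal and arterial than in sinusoidal cells, and Slc27a3 18.1-fold higher (12.2 to 27.1) in portal and arterial cells.

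Among storage genes, the widest difference was that of G0s2 in stellate cells. G0s2, like Hilpda an inhibitor of Pnpla2, was at 1567 CPM in stellate, 5.38 in sinusoidal and 2.02 in Kupffer cells, and the ratio of stellate to sinusoidal cells was 291-fold (232 to 371). Hsd17b11, another droplet protein, was 2.33-fold lower. For the lists in this paragraph too, 17.2% of all genes were called higher and 19.8% lower. Of 10 synthesis genes tested, 3 were higher and 3 lower, with Agpat2 at 10.1-fold and Dgat2, which makes triglyceride, at 9.82-fold higher, and Lpin3 6.06-fold and Lpin1 2.87-fold lower. Acyl-CoA genes had 3 higher and 0 lower of 6 tested (Acot2, Acsl4 and Acsl3, from 2.12-fold to 2.66-fold). Of 9 lipolysis and export genes tested, 0 were called higher and 6 lower: Ces1d was 7.33-fold, Lipe 4.34-fold, Mgll 3.73-fold and Pnpla2 3.45-fold lower, while the sterol exporter Abca1 was 1.24-fold higher (1.14 to 1.34). The list's median log2 ratio was -1.30, beside -0.09 over all genes tested. The hepatocyte RNAs Apoa2, Apoc3 and Fgb were 9.28-fold, 10.0-fold and 5.73-fold lower in the stellate cells as well, and their part in the low Ces1d (9 against 77 UMIs) and in Slc27a5 listed at 0 was not tested. Ppara, 8.61-fold higher from 59 UMIs, led the 3 of 11 regulators called higher, with 1 lower.

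In Kupffer cells, where 16.3% of all genes were called higher and 24.1% lower, the lipolysis and export list had 3 higher and 1 lower of 9 tested: the sterol exporter Abca1 was at 830 CPM, 10.2-fold above sinusoidal cells, the lysosomal sterol carriers Npc2 and Npc1 were 4.12-fold and 2.997-fold higher, and Mgll, which splits monoglycerides, was 97.1-fold lower. Soat1, which esterifies cholesterol, was 6.38-fold higher, and 2 of 9 synthesis genes were higher and 2 lower. Of 10 regulators tested, 4 were higher and 0 lower, led by Nr1h3, the sterol sensor LXR alpha, at 658 CPM and 121-fold. Acot1 was 79.6-fold higher, from 8 sinusoidal UMIs, among 3 of 7 acyl-CoA genes called higher. Across the parts of sinusoidal and of stellate cells, and between cytokine ranges of Kupffer cells, these 6 lists held 1 called gene in all, Lipe, 2.07-fold lower at the central end of the sinusoidal cells. Each list had 3 to 10 genes tested there. Few genes of any kind were called: 1.05% higher and 1.46% lower between sinusoidal ends, 1.16% and 1.07% between stellate ends, and 1.96% and 1.02% between cytokine ranges.

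**Figure D5:**
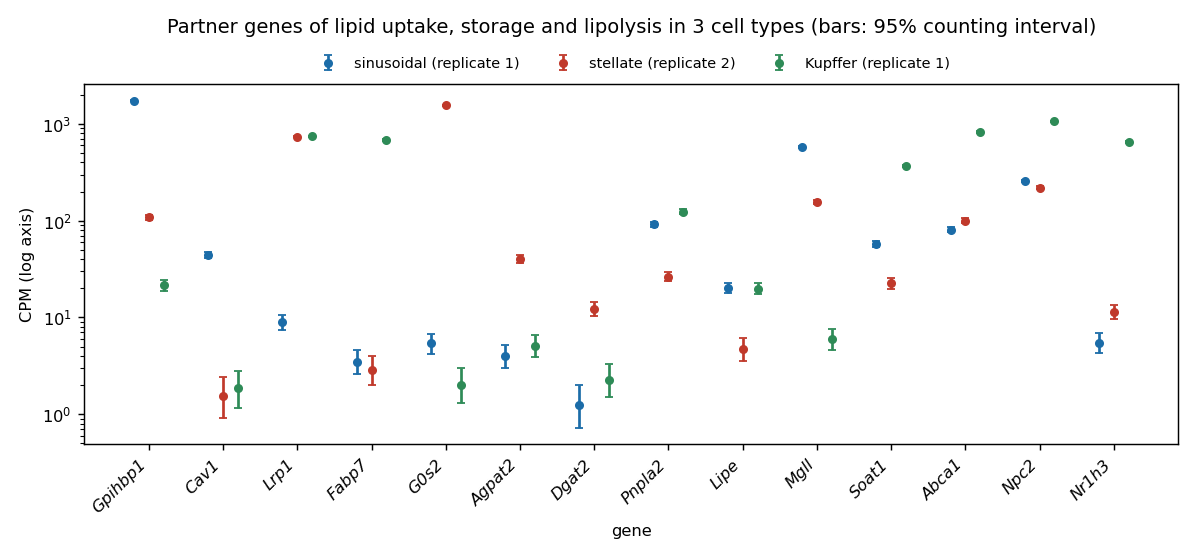
CPM (log axis) of partner genes in sinusoidal, stellate and Kupffer cells, with 95% counting intervals. G0s2 is at 1567 CPM in stellate cells, Gpihbp1 at 1743 CPM in sinusoidal cells and Nr1h3 at 658 CPM in Kupffer cells, each far above the other types drawn.

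Over the 15 cell types, the genes whose log2(CPM + 1) ran most like that of Fabp4 among 8341 genes were Sele, Adgrf5, Sox18, Tal1 and Thsd1, with Pearson's r from 0.93 to 0.94. For Cd36 they were Ap1b1 (r = 0.86), Ccdc86, Scarb1 (r = 0.81), Rcan1 and Gsto1. For Hilpda the likeness was weaker, with Helz2 and Cd207 at 0.77, Prdm1, Ywhaz and Vps4b. Of these types 14 share 1 library, and these coefficients are descriptions.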

How the data were processed

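The authors deposited raw counts of UMIs for each gene in each cell. Cell Ranger 2.1.1, Seurat 3.1 and GRCm38 are named in the submitters' processing notes, without the role of each. The number closing each barcode was read as the replicate; 5 barcodes occur in both libraries and were kept as separate cells. Cells needed 200 genes and at most 20% mitochondrial UMIs, which removed 597 cells (8.11%) of replicate 1. A cell entered a type when at least 3 and at least 50% of its markers (6 of 8 for hepatocytes) had a UMI and their share reached 0.2 of the usual level. Cells with a second list above 0.5 of the best (117 and 13 cells) were left out as mixed, in place of a doublet caller, and 277 cells met no gate. Endothelial cells needed 4 of 7 vein or portal markers, or 5 of 7 sinusoidal ones. The thresholds were set after seeing the data, and the genes and lists were chosen with earlier results of these data known. UMIs were summed per type and scaled to CPM, with Poisson, Clopper-Pearson and conditional binomial intervals (Python 3.11.15, SciPy 1.17.1). Each type was read in 1 library, so no test was made. The ratio code was tested on simulated data. Named were all 10 genes, up to 4 called genes of each pathway list by size, and the 5 genes most like Fabp4, Cd36 and Hilpda. Gene positions are from GENCODE on GRCm38, and promoter windows from RefSeq. Free RNA was not subtracted.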

Additional observations from a re-analysis of the deposited data

Results flagged for a closer look

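Some cells outside the comparisons carried the genes at a level well above 0. The 82 endothelial cells of replicate 1 that met neither the vein, the portal nor the sinusoidal gate had 5026 CPM of Fabp4 (4701 to 5367), at a median of 1151 UMIs per cell and with a UMI in 46.3% of cells. The 277 cells without a type had 744 CPM of Fabp1 and 438 CPM of Fabp5, the latter from 15.5% of the cells. Of their 417 Fabp5 UMIs 1 cell held 119, and the level was 319 CPM without it. The 597 cells removed by the cell filter had a median mitochondrial share of 78.2%. They had 643 CPM of Fabp1, with a UMI in 64.5% of cells, and 94.9 CPM of Fabp4, with a UMI in 14.2%. Of the 1904 Fabp1 UMIs 1 cell held 310, and the level was 540 CPM without it.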

How the results depend on the processing

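Of the 15 ratios of Fabp4, Cd36 and Hilpda, none turned direction among those called, and the cause of the shifts below was not tested. The level of each of the 10 genes in its highest type was also followed. With equal weight per cell 9 of the 10 levels left their interval, and the largest change was 2.50-fold. Without the 5% of cells with most UMIs 5 left it (largest change 2.08-fold). Thinned to 1500 UMIs 5 left it (1.85-fold), with a stricter gate 2 (1.22-fold). Ratios are given as first group over second. With a stricter gate the central vein ratio was 9.58 for Fabp4 and 0.124 for Cd36, Fabp4 was 4.89 in portal and arterial cells, 3.16 between sinusoidal ends and 0.0899 in stellate cells, and 1 gene was called higher in portal and arterial cells and 4 lower in central vein cells. Without the 5% of cells with most UMIs, Fabp4 was 9.56 in central vein and 6.67 in portal and arterial cells, and Cd36 1.43 in the latter. Thinned to 1500 UMIs, Fabp4 was 5.82 and Cd36 1.29 in portal and arterial cells, 0.0988 and 0.0274 in stellate cells, and Hilpda 0.651 between sinusoidal ends, with 1 gene called higher in portal and arterial cells and 1 lower at the central end. With equal weight per cell, Fabp4 was 9.23, 6.09, 2.93 and 0.1002 in central vein, portal and arterial, sinusoidal end and stellate comparisons, Cd36 0.175 in central vein and 1.35 in portal and arterial cells, and 1 gene was called lower in central vein and 1 in cytokine-high Kupffer cells. Comparing the outer 2 of 4 equal parts gave 3.02 for Fabp4 and 0.353 for Cd36 between sinusoidal ends. A minimum of 10 UMIs gave 2 genes higher in central vein cells, the added gene being Pparg. Filtering at 10% mitochondrial UMIs and 500 genes left all 15 ratios inside their intervals, and leaving mitochondrial and hepatocyte genes out of the total moved 0 of 14 counts. Without replicate 2, the 5 stellate cells of replicate 1 gave 3 genes called lower than in sinusoidal cells, Fabp4, Cd36 and Lipa. These had 0, 0 and 1 UMIs among 11384, and a count of 0 was set to 3 counts. Calls in either direction rested on at most 6 UMIs of a gene in these cells, so no result is drawn from them. Ratios of Fabp4, Cd36 and Hilpda are not given from 0, 0 and 1 UMIs. Alternatives chosen after seeing the data gave, between sinusoidal ends, 2.20 for Fabp4 and 0.445 for Cd36 in cells without vein marker UMIs. Below the median of immediate early genes they gave 3.14 for Fabp4, 0.346 for Cd36 and 0.294 for Hilpda, and above it 2.37, 0.426 and 0.584. Sinusoidal cells without vein marker UMIs put Fabp4 at 10.5 in central vein and 6.40 in portal and arterial cells. No paired analysis was possible because the study has 1 group. Depth limits Pparg, and Lpl in endothelium, to few UMIs, and 23 to 30 cells in the rarest types bound little.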

Other observations

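Types of fewer than 20 cells entered no comparison. The 18 monocytes had 407 CPM of Fabp5 (296 to 546), 351 CPM of Plin2 (249 to 482) and 314 CPM of Lpl (218 to 439). Of the monocyte UMIs, 1 cell held 30 of 44 for Fabp5 and 1 cell 19 of 34 for Lpl, and without that cell the levels were 140 and 146 CPM. The 16 lymphatic endothelial cells had 207 CPM of Fabp4 (118 to 336), or 129 CPM without 1 cell, and 0 UMIs of Cd36. Of the 16 smooth muscle cells of replicate 1, 50.0% had an Lpl UMI, at 109 CPM (56.2 to 190).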
